A study of Mus musculus with 4 samples.

Results

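Liver endothelial nuclei were the nuclei that carried the name Endothelial in the authors' deposited cell table, and their values were read from the raw count matrix. The name was given to 245 of the 5193 nuclei. Nuclei were isolated by the authors from frozen liver of 3 wildtype (WT) and 3 hepatocyte-specific Nampt knockout (HNKO) mice, all female and on the C57BL6/BomTac background, that were 8 to 12 weeks old when they started 6 weeks on a purified control diet. HNKO mice carried floxed Nampt alleles and Cre recombinase under the albumin promoter, and WT mice were floxed littermates without Cre. The albumin promoter is active in hepatocytes, so endothelial cells were not the targeted cells. The mice came from a cohort in which some animals also received nicotinamide riboside, and the sources used here name only the diet for these 6 mice. Each mouse was stained with its own hashtag antibody, and the sorted nuclei of all mice were pooled into 2 RNA libraries, so that a mouse is known from its hashtag and its library is not. The 5193 barcodes all differed. The question was which genes mark these nuclei, how the nuclei vary along the sinusoid, and whether they differ between genotypes.

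Most endothelial cells of the liver line the sinusoids, the capillaries that carry blood from the portal tract to the central vein. Liver sinusoidal endothelial cells have open pores and take up waste from the blood through scavenger receptors such as the stabilins and the mannose receptor. They also send signals to their neighbours: endothelial cells near the central vein secrete Wnt2, Wnt9b and Rspo3, which set the pericentral programme of hepatocytes, whereas those near the portal tract carry more Efnb2 and Dll4. Arteries and large veins are lined by another kind of endothelium.

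WT mice 1, 2 and 3 contributed 26, 26 and 29 endothelial nuclei, and HNKO mice 1, 2 and 3 contributed 71, 51 and 42. Counts of unique molecular identifiers (UMIs) were summed per mouse, because nuclei of a mouse are not replicates, and the sums held 89294 to 108323 UMIs in WT and 156109 to 317702 UMIs in HNKO mice. The median nucleus held 2444 to 3260 UMIs per mouse, and 77.8% to 80.9% of the UMIs came from unspliced RNA. The mouse's own hashtag made up 34.5% (HNKO mouse 3) to 68.3% (HNKO mouse 1) of the hashtag counts of these nuclei. Levels are given as CPM, the counts of a gene scaled to 1e+06 UMIs of the sum, are not corrected for gene length, and are not compared between genes. In sums over nuclei, fewer cells of a kind and less RNA per cell cannot be told apart.

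Endothelial nuclei were not of 1 kind, and 54 of them formed a subcluster led by hepatocyte genes (Ppara, Ugt1a10, Gfra1, Slc7a2 and Cps1). These nuclei held 31.2% of the endothelial UMIs. A list of 13 hepatocyte genes, among them Alb and Cps1, stood at 20058 CPM in them, at 26742 CPM in nuclei named hepatocytes, and at 1896 CPM in the other 191 endothelial nuclei. Per nucleus, the list took 0.407% to 3.72% of UMIs (median 1.70%), while 22 pan-endothelial genes took 0.154% to 1.73% (median 0.524%). The median hepatocyte nucleus had 2.45% and 0% for the same lists. Nuclei of this subcluster were found in every mouse (23.1%, 30.8% and 27.6% of the endothelial nuclei of WT mice 1, 2 and 3 and 18.3%, 19.6% and 21.4% of those of HNKO mice 1, 2 and 3), and their own-hashtag share was 73.9% against 40.2% to 50.3% in the other subclusters. The authors had removed droplets with hashtags of several mice, droplets with nuclei of a single mouse were not removed, and no doublet caller was run here. What put hepatocyte RNA in these droplets was not tested. Results are therefore given with and without these 54 nuclei where they differ.

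Of the targeted gene Nampt, the rate-limiting enzyme of the NAD salvage pathway (chromosome 12, positions 32819545 to 32853349 in GRCm38), hepatocytes held 84.8, 105 and 96.9 CPM in WT mice 1, 2 and 3, and the HNKO mice 1, 2 and 3 had 84.1, 148 and 90.8 CPM. These values overlapped, and counts per gene do not show which exons a transcript held, so that they are no check of the deletion. Endothelial Nampt was 33.6, 11 and 27.7 CPM in WT mice against 97.6, 86.7 and 51.2 CPM in HNKO mice, without overlap, and 48.4% of its 62 UMIs lay in the nuclei led by hepatocyte genes. Without those nuclei it was 0, 1 and 2 UMIs in WT mice and 15, 8 and 6 UMIs in HNKO mice. Stellate Nampt did not overlap either, at 37.1, 17.6 and 19.97 CPM in WT mice against 80.9, 95.9 and 66.4 CPM in HNKO mice. Cholangiocyte Nampt was 0 CPM in WT mice 1 and 2 and 19.2 to 73.9 CPM in HNKO mice. Kupffer and CD45+ values overlapped. Of all genes tested between genotypes in endothelial nuclei, 9.99% had values without overlap. Nampt was below the count filter and could not be tested in endothelial nuclei.

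Levels of 5 endothelial markers are given as a description, since the authors made clusters on expression and named them by markers. Of the 5 markers, Stab2 is the sinusoidal hyaluronan receptor stabilin 2 and Ptprb the vascular endothelial protein tyrosine phosphatase. Adgrl4 and Adgrf5 are adhesion G protein-coupled receptors, and Sema6a is a transmembrane semaphorin. Over the 6 mice, endothelial sums held 5458 ± 898 CPM of Stab2, 3162 ± 543 of Ptprb, 1846 ± 429 of Sema6a, 1326 ± 79.9 of Adgrl4 and 1092 ± 283 of Adgrf5 (SD, n = 6). All 5 were present in every mouse, with a lowest value of 782 CPM for Adgrf5 in HNKO mouse 3. The highest level in another type was 204 ± 158 CPM for Stab2, in Kupffer cells, and 514 ± 345 CPM for Sema6a, in cholangiocytes (n = 5, since WT mouse 3 had no cholangiocyte nucleus). The plot of marker levels by nucleus type shows the gap between endothelial sums and all others. When each nucleus was thinned to 1000 UMIs, Stab2 was found in 86.5% and Ptprb in 84.1% of endothelial nuclei (exact 95% intervals 81.6 to 90.5 and 78.9 to 88.4), against 2.63% and 0.771% of hepatocyte nuclei. Unthinned, with a median of 3017 UMIs in endothelial and 4484 in hepatocyte nuclei, these shares were 92.7% and 96.3% against 12.5% and 3.31%. Hepatocytes should lack both genes, so their shares are taken as the background. Whether free RNA or droplets with a second nucleus gave it was not tested. Kupffer nuclei had a Stab2 UMI in 21.2% after thinning (12.9 to 31.8) and cholangiocyte nuclei a Sema6a UMI in 28.2% (20.02 to 37.6), both above the 2.63% and 0.408% in hepatocytes. At least 1 marker was found in 241 of the 245 endothelial nuclei after thinning, and in all 245 without it. Intervals cover counting error only.

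**Figure D1:**
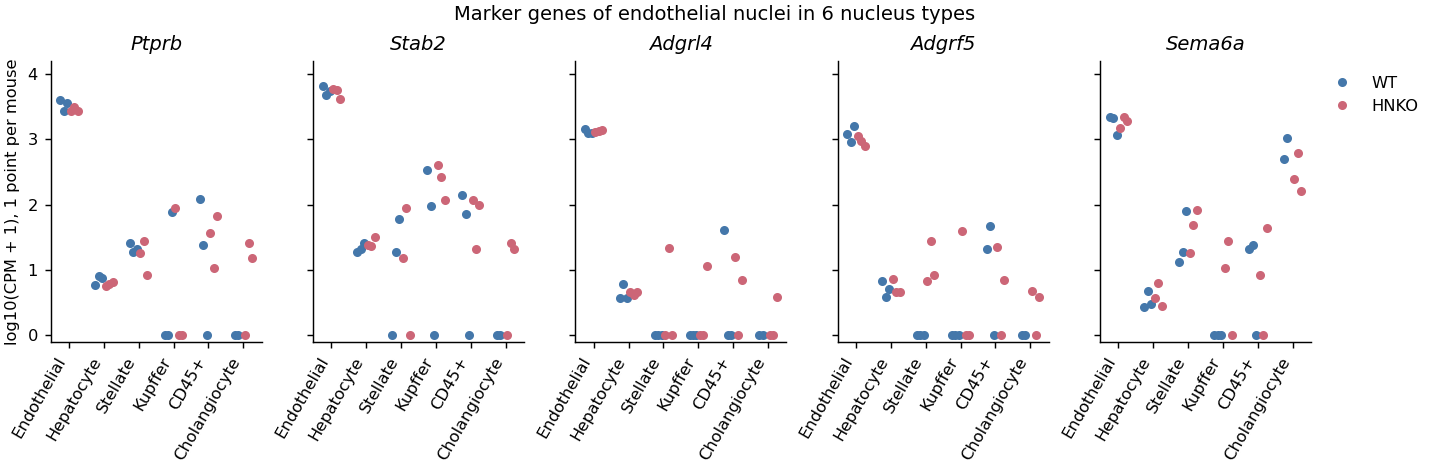
Level of each of the 5 marker genes in the summed nuclei of each type, as log10(CPM + 1) on the y axis, with 1 point per mouse (blue, WT; red, HNKO). Endothelial sums lie above every other type for all 5 genes, with Sema6a in cholangiocytes and Stab2 in Kupffer cells closest to them.

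Lists of other cell types were low beside their own types but not absent. The Kupffer list summed to 6.81 to 44.9 CPM per mouse in endothelial nuclei, against 6205 CPM in Kupffer nuclei, with Timd4 and Vsig4 at 0. The CD45+ list summed to 239 to 530 CPM, against 6180 CPM in CD45+ nuclei, and was found in every subcluster. Of its 10 genes 9 were detected, with 266 UMIs of Inpp4b, 25.5 of the leukocyte gene Ptprc and none of Cd79a. The cholangiocyte list summed to 94.7 to 399 CPM, with Krt7, Krt19 and Epcam at 0 and 0.5 UMIs of Cftr. It stood at 623 CPM in the nuclei led by hepatocyte genes, against 35.4 CPM in the others and 436 CPM in hepatocyte nuclei. The part of these lists in the results was not tested. Among stellate genes, Lrat, Pdgfrb and Des were at 0 and Dcn had 3 UMIs over all endothelial nuclei. Of the 4 lymphatic genes, Pdpn and Ccl21a were at 0 and Mmrn1 had 1 UMI. Prox1, a lymphatic factor that hepatocytes also express, had 101 UMIs, and the lymphatic list stood at 12.3 CPM without the nuclei led by hepatocyte genes. The stellate list still summed to 370 to 920 CPM per mouse, nearly all of it Hgf and Rbms3.

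Identity genes are given as a description, since the clusters were made on these genes. The ratio of endothelial CPM to the CPM of all other nuclei of the same mouse was computed for 2558 genes with at least 5 UMIs in every endothelial sum. Ptprb had the highest value of the lowest ratio over the mice (354 to 578 times). It was followed by Afap1l1 (326 to 1079 times), an actin-associated adaptor, Kdr, the main VEGF receptor of blood vessels (281 to 439 times), Cyyr1 (258 to 536 times) and Adgrl4 (258 to 465 times). The next genes included the junction proteins Jam2 and Pcdh17, the endothelial transcription factor Erg (157 to 525 times), the nitric oxide synthase Nos3 and the lymphatic and sinusoidal VEGF receptor Flt4, with Fgd5 and Arhgef15. Stab2 was only 25th, at 125 to 316 times. Among the other nuclei, most of its UMIs lay in hepatocyte nuclei (712), and Kupffer nuclei held 73. Shisa9, Galnt18, Sncaip, Fbxl7, Btnl9, Adam23 and Col13a1 completed the first 20 together with Adgrf5. Of these 20, only Fbxl7 reached over 100 CPM in a further type (392 CPM in stellate nuclei, against 3305 CPM in endothelial nuclei).

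ETS factors such as Erg bind a GGAA core, and the promoters of these genes were searched for CCGGAAGT and CAGGAAGT on both strands, from 250 bases before to 50 bases after the start site. RefSeq promoters were at hand for 13 of the 22 identity and marker genes, and none of their 16 promoters held either motif, which says only that these letters are not in this window. Over all 32851 promoters 7.07% held one. In the pan-endothelial list 1 of 20 promoters did, that of Egfl7, a matrix protein secreted by endothelium, which stood at 110 to 324 CPM in the 6 mice. It is shown as the single match, with the motif in capitals 81 bases before the start site (GRCm38.p6, chr2:26583615-26583914, plus strand):
Egfl7 promoter: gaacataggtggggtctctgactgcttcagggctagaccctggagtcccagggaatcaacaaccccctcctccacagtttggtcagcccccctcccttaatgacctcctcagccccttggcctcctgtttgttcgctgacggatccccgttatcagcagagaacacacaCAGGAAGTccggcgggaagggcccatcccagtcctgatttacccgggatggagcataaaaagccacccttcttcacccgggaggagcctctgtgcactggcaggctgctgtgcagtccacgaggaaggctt

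Nuclei were next clustered among themselves to describe their kinds, with no test. Beside the nuclei led by hepatocyte genes (subcluster 2), 3 subclusters shared high levels of the sinusoidal list of 17 genes, at 17218 CPM in subcluster 1, 19548 CPM in subcluster 3 and 17512 CPM in subcluster 4. Subcluster 4 (42 nuclei) was led by Rspo3, Wnt2, Cdh13, Kit, Plpp1 and Ntf3, and the 6 pericentral anchor genes summed to 4708 CPM in it against 646 to 1646 CPM elsewhere, so that it is called pericentral-like. It held 4, 4 and 5 nuclei of WT mice and 12, 13 and 4 of HNKO mice. Subcluster 3 (52 nuclei) was led by Rasgrf2, Enpp6 and Ehd3, and held 9, 5 and 9 nuclei of WT mice 1, 2 and 3 and 8, 16 and 5 of HNKO mice 1, 2 and 3 (34.6%, 19.2% and 31.0% against 11.3%, 31.4% and 11.9% of a mouse's endothelial nuclei). Subcluster 1 (78 nuclei) was led by Xylt1, Cenpp, Diaph3, Abcc9, Hmga2 and Top2a, but Cenpp rested on 4 nuclei and Top2a on 3. It held 6, 5 and 5 nuclei of WT mice and 34, 10 and 18 of HNKO mice (23.1%, 19.2% and 17.2% against 47.9%, 19.6% and 42.9%). Neither subcluster was named. The sums compared between genotypes mix these kinds in the proportions given here, which were not tested.

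Subcluster 5 (19 nuclei) stood apart from these 3. Its sinusoidal list was at 6457 CPM and its pan-endothelial list at 31979 CPM, the highest of the 5. The pan-endothelial list contains Ldb2 and Mecom, which stood at 9544 and 6717 CPM in this subcluster. Ldb2 was at 708 to 3394 CPM in the other subclusters. Large vessel genes, among them Vwf and the connexin Gja5, summed to 955 CPM against 54.2 to 159 CPM in the other subclusters, and the periportal anchors to 6352 CPM. The leading genes were Mecom, an endothelial transcription factor (6717 CPM against 19.4 to 146 CPM in the others), the adhesion receptor Adgrg6 (2010 CPM), Nrg1, Col8a1, Thsd7a, Vegfc and the Notch ligand Jag1. No large vessel marker was among its 10 leading genes (Gja5 was 15th), and it is called here by Mecom and Adgrg6. Its 19 nuclei were 1, 4 and 2 of WT mice 1, 2 and 3 and 4, 2 and 6 of HNKO mice 1, 2 and 3. Clustering at other resolutions gave 2 to 8 groups, with an adjusted Rand index to these of 0.25 at a resolution of 0.4 (2 groups), 0.77 at 0.6, 0.92 at 1 and 0.67 at 1.2 (8 groups).

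**Figure D2:**
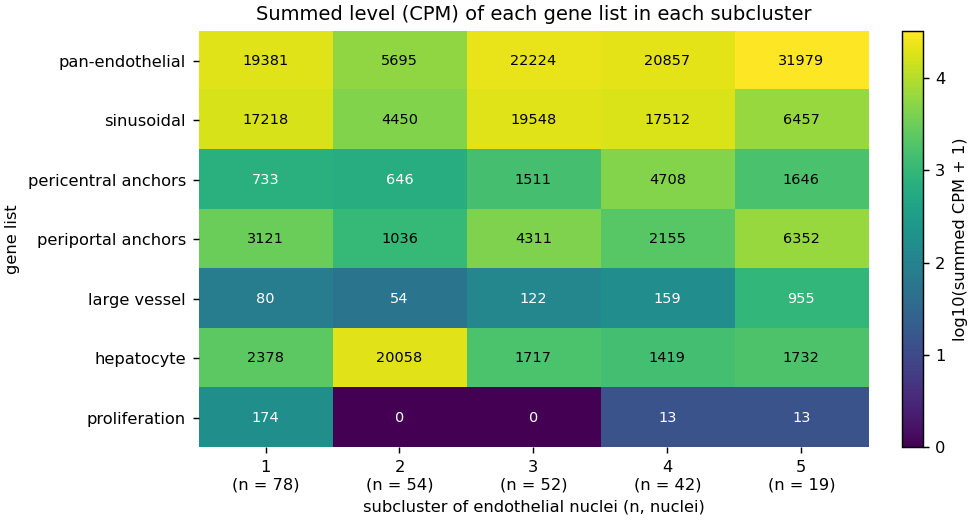
Summed level of 7 gene lists (rows) in the 5 subclusters of endothelial nuclei (columns, with the number of nuclei), written as CPM in each cell and coloured by log10(summed CPM + 1). Subcluster 2 is high in hepatocyte genes and low in endothelial genes, subcluster 4 has the highest pericentral anchors and subcluster 5 the highest large vessel and periportal genes.

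Position along the sinusoid was read from anchor genes, 6 pericentral (Wnt2, Wnt9b, Rspo3, Kit, Thbd and Cdh13) and 7 periportal (Efnb2, Dll4, Msr1, Ltbp4, Ntn4, Adgrg6 and Adam23). To see whether the anchors hold together, nuclei were split by all anchors but 1, and the level of the anchor left out was read on both sides, with no test. In 12 of 13 cases it was higher on its own side over all mice together, but single mice did not always follow (3 of 6 for Wnt2 and 4 of 6 for Cdh13). The Wnt enhancer Rspo3 was 321 CPM on the pericentral and 4.95 CPM on the periportal side, and the receptor Kit was 557 against 194 CPM, higher in 6 of 6 mice. The scavenger receptor Msr1 was 42.7 CPM on the pericentral and 431 CPM on the periportal side, also in 6 of 6 mice. Adgrg6, the exception, was 201 against 165 CPM. Cdh13 (1763 against 964 CPM) and Adam23 (1504 against 2503 CPM) held most anchor UMIs (996 of the 1489 pericentral and 1699 of the 2644 periportal), and the split leaned on both. Rspo3 was found in 14 nuclei only, and 53 of its 96 UMIs came from WT mouse 3.

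**Figure D3:**
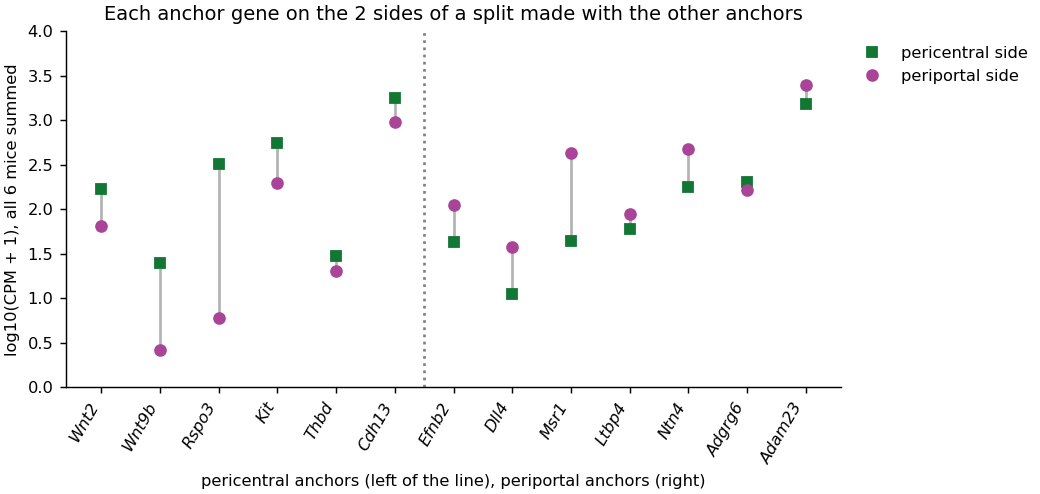
Level of each anchor gene, as log10(CPM + 1) over the 6 mice summed, in nuclei put on the pericentral (green squares) or periportal side (purple circles) by the other anchors. The 6 pericentral anchors lie higher on the pericentral side and 6 of the 7 periportal anchors on the periportal side, Adgrg6 being the exception.

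With all 13 anchors, 69 nuclei had more pericentral and 157 more periportal anchor UMIs, with 5 to 23 and 16 to 51 per mouse. Genes of a periportal list that took no part in the split (Il1a, Efna1, Jag1, Gja5 and Cd36) were lower on the pericentral side in 6 of 6 mice. Their sums were 302, 230 and 688 CPM on the pericentral and 911, 1310 and 723 CPM on the periportal side in WT mice 1, 2 and 3, and 459, 590 and 754 CPM against 679, 691 and 826 CPM in HNKO mice 1, 2 and 3. The gap was wide in WT mice 1 and 2 and narrow in WT mouse 3 and HNKO mice 2 and 3. Of this list, Jag1 and Gja5 were also leading genes of subcluster 5 (11th and 15th), as was the anchor Adgrg6. The part of that subcluster in the gap was not tested. The mean log2 ratio was -0.83 ± 0.97 (SD, n = 6, exact sign-flip permutation test, two-sided, p = 0.03125, the smallest that 6 mice allow). Genes of a held-out pericentral list (Fabp4, Lhx6, Dkk3, Ptgs1 and Selp) were higher on the pericentral side in 5 of 6 mice, with a mean log2 ratio of 1.13 ± 1.24 (exact sign-flip permutation test, two-sided, p = 0.09375). Adjusted over the 2 lists (Benjamini-Hochberg), these exact p-values are 0.0625 and 0.09375. The exception was WT mouse 2, with 3 UMIs on the pericentral and 11 on the periportal side. When Adam23 was left out of the anchors, the periportal list was lower in 5 of 6 mice, at -0.80 (exact sign-flip permutation p = 0.0625).

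All genes other than the anchors were then compared between both sides with edgeR, with the mouse as a block. Pde4b, a phosphodiesterase that breaks down cAMP (chromosome 4, positions 102087543 to 102607259), was the single gene past FDR 0.05 among 2189 tested (0.0457%). It held 346, 844 and 159 CPM on the pericentral side of WT mice 1, 2 and 3 and 573, 458 and 316 CPM in HNKO mice 1, 2 and 3. On the periportal side it held 58.2, 37.7 and 28.3 CPM in WT mice against 160, 155 and 56.3 CPM in HNKO mice. It was higher on the pericentral side in 6 of 6 mice (log2 difference 2.33, SE 0.36, edgeR FDR 0.0354, range 0.000225 to 0.216 over the alternatives). Without any single one of WT mice 1 and 3 and HNKO mouse 1, no gene passed, and without WT mouse 2 there were 6. Hepatocytes held 168 to 309 CPM of Pde4b and 41.0% of its endothelial UMIs lay in the nuclei led by hepatocyte genes. In WT mouse 2 Pde4b had 25 UMIs with those nuclei and 1 UMI without them. Without those nuclei, WT mouse 2 had too few pericentral nuclei and the log2 difference over the other 5 mice was 2.17 (edgeR FDR 0.0166). The hepatocyte list took 0.238% to 1.76% of UMIs on the pericentral and 0.367% to 0.946% on the periportal side.

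Next after Pde4b came Rbms3, an RNA-binding protein (log2 difference 1.68, SE 0.31, edgeR FDR 0.112), and Hmcn1, the matrix protein hemicentin, which was lower on the pericentral side (-1.07, SE 0.23, edgeR FDR 0.265). Hal and Sds followed, also lower there (-3.48 and -2.66, edgeR FDR 0.501 and 0.502). The nuclei led by hepatocyte genes held 84.8% and 89.6% of their UMIs. Rbms3 is also a stellate marker, at 7345 ± 1444 CPM in stellate nuclei against 226 ± 136 CPM in endothelial nuclei. Unadjusted p was under 0.05 for 96 genes (4.39%). Of the endothelial lists, the angiocrine ligands Pdgfd (-0.92) and Vegfc (-2.31), the transcription factors Mecom (-2.15) and Foxo1 (-0.78), the adaptor Ldb2 (-1.02), Shank3 (0.71) and Mef2a (0.62) were among them, with an edgeR FDR of 0.747 or more. None of the scavenging genes (9 tested, median -0.08), VEGF and angiopoietin receptors (8 tested, median -0.18) or sinusoidal genes (15 tested, median -0.04) was, where the median over all genes tested was -0.04.

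Because Adam23 held most periportal anchor UMIs, the split was repeated without it and without the nuclei led by hepatocyte genes, a choice made after seeing the data. Among the nuclei kept, leaving out Adam23 raised the number on the pericentral side in every mouse. The change was largest in HNKO mouse 1, from 10 pericentral and 43 periportal nuclei to 35 and 21. In this fit 23 of 1109 genes passed (2.07%) in the 6 mice, 8 higher and 15 lower on the pericentral side. Higher were Plpp1, a lipid phosphate phosphatase (3474 against 1512 CPM over all mice, log2 difference 1.26, SE 0.20, edgeR FDR 6.52e-05), Ralgapa2 (0.85), Dlc1 (0.79), and Pros1, the anticoagulant protein S (1.30). Over the alternatives the log2 difference ranged from 0.29 to 0.85 for Ralgapa2, 0.16 to 0.79 for Dlc1 and -0.0057 to 1.30 for Pros1. The value of -0.0057 was without Cdh13 among the anchors. Lower were Hmcn1 (550 against 1623 CPM, log2 difference -1.64), the insulin receptor Insr (492 against 1462 CPM, -1.60), Mecom (-2.98) and Vegfc, a growth factor for Flt4 (-3.79), each with an edgeR FDR of 3.42e-05 to 3.61e-05 in this fit. Over their alternatives the edgeR and DESeq2 FDR ranged from 6.52e-05 to 1 for Plpp1, 3.61e-05 to 0.843 for Hmcn1, 3.61e-05 to 1 for Insr and Vegfc, and 6.33e-07 to 1 for Mecom. Plpp1, Hmcn1 and Insr each differed in this direction in 6 of 6 mice. Mecom was lower in 5 of 6 mice, the exception being WT mouse 1 with 2 UMIs against 1. Mecom, Vegfc, Nrg1, Thsd7a and Col8a1 were also leading genes of subcluster 5. So was the periportal anchor Adgrg6, with 150 of its 160 UMIs there, and the periportal anchor Ntn4 had 132 of 337 there. Insr and Hmcn1 were highest there as well, at 3289 CPM (245 of 731 UMIs) against 311 to 750 CPM and at 2497 CPM (186 of 707 UMIs) against 245 to 1229 CPM in the other subclusters. A fit without these 19 nuclei was not made. In sums of few nuclei such genes can rest on a few of them: 1 nucleus held 56 of the 89 Col8a1 UMIs and 1 nucleus held 53.9 of the 158 Vegfc UMIs. The plot of zonation genes shows that Pde4b, with 0 UMIs on the pericentral side of WT mouse 2 in this split, was below the count filter here.

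**Figure D4:**
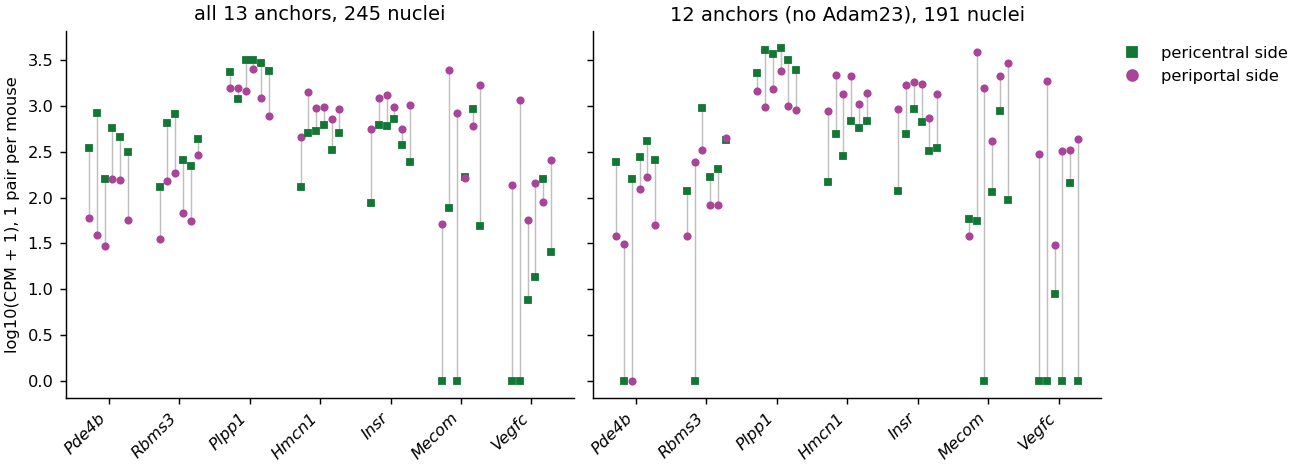
Level of 7 genes, as log10(CPM + 1), on the pericentral (green squares) and periportal side (purple circles) of each mouse, joined by a line, in the order WT mice 1 to 3 and HNKO mice 1 to 3. The left panel uses all 13 anchors and 245 nuclei and the right panel 12 anchors without Adam23 and 191 nuclei, where Plpp1 is higher and Hmcn1 and Insr are lower on the pericentral side in all 6 mice.

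To determine whether endothelial nuclei differed between genotypes, the sums of 3 HNKO and 3 WT mice were compared gene by gene. With edgeR, 0 of 2743 genes (0%) passed FDR 0.05, and 104 (3.79%) had an unadjusted p under 0.05, 54 higher and 50 lower in HNKO mice. DESeq2 called 1 gene on the same sums and had 43 under an unadjusted p of 0.05. For 274 genes (9.99%) the 3 WT values lay apart from the 3 HNKO values. Every gene below had an edgeR FDR of 0.996, and its values are a description of these 6 mice.

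The gene called by DESeq2 was Flrt2, a transmembrane adhesion and guidance protein (chromosome 12, positions 95692226 to 95785215). It held 11.2, 44.0 and 9.23 CPM in WT mice 1, 2 and 3 (1, 4 and 1 UMIs) and 116, 136 and 589 CPM in HNKO mice 1, 2 and 3 (37, 25 and 92 UMIs). HNKO mouse 3 stood far above the other mice. The log2 fold change was 3.62 (SE 0.85, edgeR FDR 0.996) and 3.70 in DESeq2 (FDR 0.0175, with a range of 1.59e-09 to 0.998 over the alternatives), and it was 2.55 without HNKO mouse 3. Only 6.88% of its UMIs lay in the nuclei led by hepatocyte genes. It was found in 46 nuclei, with 28 of its 160 UMIs in 1 nucleus. Subcluster 5, of which HNKO mouse 3 had 6 of the 19 nuclei, held 53 of the UMIs (711 CPM against 37.3 to 241 CPM in the other subclusters). The part of this makeup in the difference was not tested.

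Further genes whose values did not overlap were named by the smallest p. Hs2st1, a heparan sulfate sulfotransferase, was 33.6, 22.0 and 36.9 CPM in WT mice against 116, 121 and 179 CPM in HNKO mice (log2 fold change 2.09, SE 0.45). Hepatocytes held 85.9, 83.2 and 74.4 CPM of Hs2st1 in WT mice and 106, 101 and 164 CPM in HNKO mice, also without overlap. Plcl2, an inactive relative of phospholipase C, was 157, 99.0 and 129 CPM in WT mice against 260, 282 and 263 CPM in HNKO mice (1.05, SE 0.28). Prickle2, a planar polarity protein, was 33.6, 77.0 and 102 CPM in WT and 183, 146 and 243 CPM in HNKO mice (1.37, SE 0.39). Stellate nuclei held more of Plcl2 (309 to 466 CPM) and of Prickle2 (433 to 734 CPM) over the 6 mice. Plcl2 varied least among the HNKO mice, and all 3 genes kept their direction without the nuclei led by hepatocyte genes (2.99, 1.39 and 1.31). Plcl2 and Prickle2 had their highest level in subcluster 1 (337.6 and 270.3 CPM), which made up more of HNKO mice 1 and 3 than of the other mice, and the part of this in the differences was not tested. Lower in all HNKO mice were the peptide transporter Slc15a2, at 85.3 ± 29.7 against 239 ± 87.7 CPM (-1.50, SE 0.37), and the endocytic adaptor Sh3kbp1, at 102 ± 8.43 against 218 ± 66.9 CPM (-1.11, SE 0.31, SD, n = 3 each). Hepatocyte Slc15a2 did not overlap either, at 63.2, 44.9 and 49.0 CPM in WT mice against 38.0, 7.25 and 23.1 CPM in HNKO mice. The part of hepatocyte RNA in the endothelial differences of Hs2st1 and Slc15a2 was not tested. Of the remaining 4, 3 lay mostly in the nuclei led by hepatocyte genes. Nlrp6 (-1.43), Shroom3 (1.48) and Igfbp1 (-1.52), the last a secreted hepatocyte protein, had 95.05%, 91.7% and 83.3% of their UMIs there, and without those nuclei they were below the count filter. Rn18s-rs5, a copy of ribosomal RNA sequence whose reads can come from many loci, had a log2 fold change of -0.37 that was -0.05 without those nuclei.

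**Figure D5:**
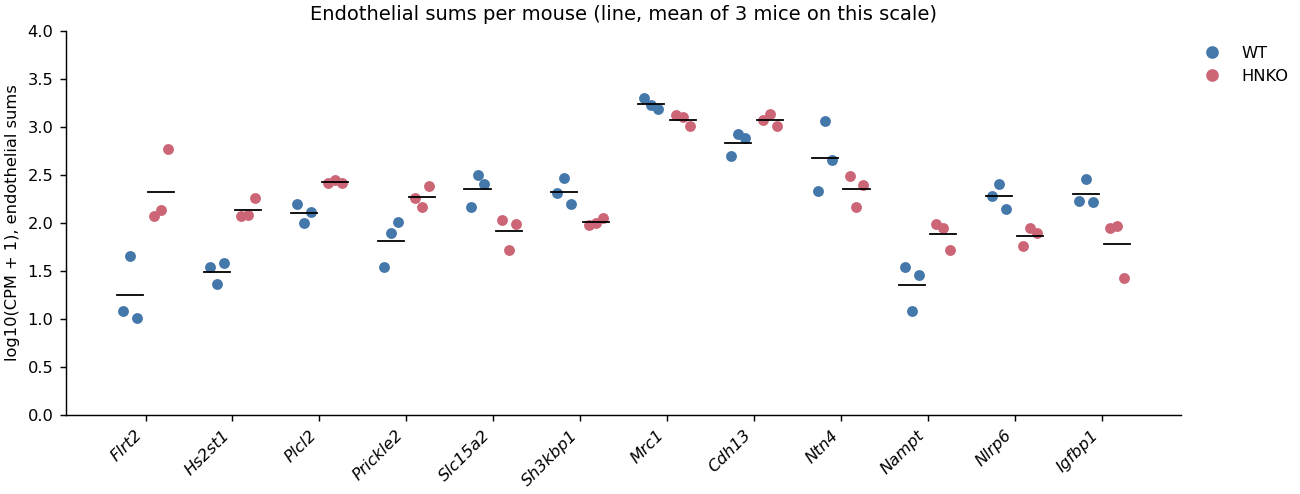
Level of 12 genes in the endothelial sum of each mouse, as log10(CPM + 1), with WT mice in blue, HNKO mice in red and a line at the mean of 3 mice on this scale. The mice of both genotypes do not overlap for 11 of the 12 genes, Ntn4 being the exception. Most of these genes were named by a rule that asks for no overlap, which held for 274 of the 2743 genes tested (9.99%). Nampt was not tested, and none of the other 11 passed the edgeR threshold.

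Scavenging and endocytosis genes were measured in full, with 13 of 13 tested. Of these, 1 was lower in HNKO mice at an unadjusted p under 0.05 and 0 were higher. In edgeR and in DESeq2, 0 passed FDR 0.05 (median log2 fold change -0.12, against -0.0026 over all 2743 genes). Over all 2743 genes, 104 (3.79%) were under this unadjusted p in edgeR, 50 of them lower. The scavenging gene was Mrc1, the mannose receptor (chromosome 2, positions 14229392 to 14332057). It held 1993, 1704 and 1546 CPM in WT mice against 1343, 1266 and 1015 CPM in HNKO mice (log2 fold change -0.54, SE 0.18, edgeR unadjusted p = 0.0122). The groups did not overlap, as for 9.99% of all genes tested, and the log2 fold change was -0.63 without the nuclei led by hepatocyte genes. Stab2, the most abundant member by UMIs, was 6618, 4757 and 5576 CPM in WT mice against 6014, 5678 and 4107 CPM in HNKO mice, with overlap (-0.11, SE 0.18), and its sign changed when WT mouse 1 or HNKO mouse 3 was left out. Dab2, a clathrin adaptor (-0.40), Stab1 (-0.12) and the Fc receptor Fcgr2b (0.34) overlapped between genotypes as well.

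Among receptors for VEGF and angiopoietins, 9 of 10 were tested and 0 had an unadjusted p under 0.05 (2 higher, 7 lower, median -0.23). The coreceptor Nrp1 was 998 to 2520 CPM over the 6 mice (-0.25, SE 0.27), the angiopoietin receptor Tek 449 to 744 CPM (-0.01, SE 0.24), Kdr 343 to 717 CPM (-0.24, SE 0.27) and Flt1 418 to 646 CPM (-0.23, SE 0.23). HNKO mouse 1 was lowest for Nrp1, Tek and Kdr. Of the BMP and TGF-beta genes 6 of 11 were tested (5 higher, 1 lower, median 0.18, 0 with an unadjusted p under 0.05). Bmp6, the endothelial signal that drives hepcidin in hepatocytes, was 1288, 517 and 739 CPM in WT mice against 925, 1485 and 577 CPM in HNKO mice, a spread within each genotype that exceeded the difference (0.23, SE 0.36). Smad6, an inhibitor of BMP signalling, had a log2 fold change of 0.73 (edgeR unadjusted p = 0.0961), and of 1.08 without the nuclei led by hepatocyte genes (unadjusted p = 0.0145). Angiocrine ligands (8 of 15 tested, median -0.13) had 0 under an unadjusted p of 0.05, with Hgf at 269, 308 and 277 CPM in WT mice against 450, 228 and 581 CPM in HNKO mice (0.54, SE 0.33).

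Of the transcription factors of endothelium 15 of 24 were tested (6 higher, 9 lower, median -0.03, 0 with an unadjusted p under 0.05). Meis2 (1816 to 2551 CPM), Zeb1 (1464 to 2366 CPM), Tcf4 (1339 to 1814 CPM) and Foxp1 (1315 to 1672 CPM) each had a log2 fold change between -0.17 and 0.08. Of 12 Notch genes 3 were tested (median -0.16), of 8 flow-response genes 3 (median -0.06), of 15 adhesion and inflammation genes 1, and of 10 immediate early genes 0, so that the depth gives little on these pathways. Of 12 NAD enzymes only the NAD-consuming Cd38 was tested (638, 363 and 628 CPM in WT mice against 614, 504 and 557 CPM in HNKO mice, log2 fold change 0.03, SE 0.25). All 22 pan-endothelial genes (median -0.17) and 16 of 17 sinusoidal genes (median -0.11) were tested, with 0 and 1 (Mrc1) at an unadjusted p under 0.05. That p was met by 3.79% of all genes tested.

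Of the zonation anchors, Cdh13, a cadherin anchored in the outer membrane leaflet (chromosome 8, positions 118283733 to 119324921), was 505, 838 and 769 CPM in WT mice against 1186, 1382 and 1024 CPM in HNKO mice, without overlap (log2 fold change 0.75, SE 0.23, edgeR unadjusted p = 0.0063). It was 0.95 without the nuclei led by hepatocyte genes. The periportal anchor Ntn4, a netrin, was 213, 1156 and 452 CPM in WT mice against 308, 146 and 250 CPM in HNKO mice (-1.36, SE 0.49, unadjusted p = 0.016), with overlap and a high WT mouse 2. Of the other anchors tested, Kit and Adam23 were higher and Rspo3, Wnt2, Msr1, Adgrg6, Efnb2 and Ltbp4 lower in HNKO mice, with an unadjusted p of 0.0806 or more. Pericentral anchors made up 25.3%, 24.9% and 34.9% of anchor UMIs in WT mice and 32.9%, 53.5% and 36.7% in HNKO mice. The means were 28.4 ± 5.66% and 41.1 ± 10.97% (SD, n = 3 each), and the mice overlapped (exact permutation test, two-sided, p = 0.2, adjusted p = 0.8 over 4 shares, smallest possible p 0.1). Without Cdh13 the means were 14.5% and 18.04% (exact permutation p = 0.6).

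The remaining shares also overlapped. Sinusoidal genes took 1.34 ± 0.252% of UMIs in WT and 1.25 ± 0.153% in HNKO mice (exact permutation p = 0.7), and large vessel genes 0.0222 ± 0.0185% and 0.0155 ± 0.0071% (p = 0.8). Hepatocyte genes took 0.667 ± 0.152% and 0.756 ± 0.233% (exact permutation p = 0.8), and without the nuclei led by hepatocyte genes 0.178 ± 0.0266% and 0.194 ± 0.0112% (exact permutation p = 0.5). These 3 had an adjusted p of 0.8 as well. The sign of each of these differences changed with at least 1 alternative.

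A difference of genotype effect between endothelial and stellate nuclei, the pericytes of the sinusoid, was tested directly as an interaction, blocked by mouse. None of 3658 genes passed in edgeR (0 genes, 0%), where 192 (5.25%) had an unadjusted p under 0.05, and 0 passed in DESeq2, where 67 had. Without HNKO mouse 2, 18 genes passed. Of the 10 genes that the rule named, Gfra1, Slco1b2, Abcc2, Cyp3a25 and Cyp2c29 had 85.5% to 93.4% of their endothelial UMIs in the nuclei led by hepatocyte genes. Nrxn3, a synaptic adhesion gene, had 1, 0 and 0 endothelial UMIs in WT mice and 23.8, 3 and 52 in HNKO mice, while stellate nuclei held 2822 to 3711 CPM in WT and 1541 to 2657 CPM in HNKO mice (edgeR FDR 0.351, range 3.52e-08 to 1 over the alternatives). Larp4b, an RNA-binding protein, was 146, 121 and 120 CPM in WT and 264, 217 and 237 CPM in HNKO endothelial nuclei, and 284, 423 and 200 CPM against 191, 137 and 162 CPM in stellate nuclei (log2 difference 1.81, SE 0.47, edgeR FDR 0.748). Antxr2, Sema3d and Tmtc2 made up the rest.

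Few nuclei carried cell cycle RNA. Of 8 proliferation genes, among them Mki67 and Top2a, at least 2 UMIs were found in 1 nucleus of each HNKO mouse and in no nucleus of the WT mice. The 3 nuclei held 24, 9.5 and 9 UMIs of the list. With 26 to 71 nuclei per mouse these are single nuclei, and the genotypes were not compared.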

How the data were processed

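Single nuclei of 6 frozen livers were stained with 1 hashtag per mouse, sorted, pooled and sequenced by the authors on the 10x platform. The submitters' processing notes name Cell Ranger 5.0.1, alevin and GRCm38. The authors deposited estimated counts of UMIs per gene and nucleus (alevin, spliced and unspliced together), raw hashtag counts, a corrected score per gene from SCTransform, and a cell table with the mouse called from the hashtags, the genotype and a name for each of 21 clusters. The GEO labels do not list the mice as separate samples, so genotype and mouse were taken from that table. The matrix held 0 mitochondrially encoded genes, so their share could not be used as a sign of quality.

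Estimated counts were summed per mouse and rounded. Sums of 3 HNKO and 3 WT mice were compared with edgeR 4.0.16 (R 4.3.3) by its quasi-likelihood test, with TMM scaling, filterByExpr and Benjamini-Hochberg adjustment over all genes tested, and with DESeq2 1.42.0 as an alternative. Sides of the sinusoid and nucleus types were compared with the mouse as a block. CPM in the text are of the unfiltered sums. Shares were compared by exact permutation over mice and held-out lists by exact sign flips of log2 ratios of CPM + 10. Nuclei were clustered with leidenalg 0.10.2 on 1500 variable genes. On drawn counts with 200 changed genes, the genotype fit recovered 83% of them, the zonation fit 85% and the stellate comparison 41%. False calls were 6, 4 and 1. All drawn changes had the same size, larger than that of Mrc1, Cdh13 or Plcl2 between genotypes, and 1 dispersion was used for all genes. Each gene was drawn from 1 mean over all sums, so the draws held no other differences between mice or nucleus types. The rates hold for such counts only, and recovery of smaller changes was not measured. Nuclei of a mouse share 1 animal, and mice were the replicates.

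The members and the gene lists were chosen with earlier results of these data known. Genes were named by rule: the 5 markers and Nampt, the 20 identity genes with the highest lowest ratio, every gene past FDR 0.05 in edgeR or DESeq2 with the 10 of smallest p among genes whose groups do not overlap, and of each list the 4 members with the highest mean CPM and those with an unadjusted p under 0.05. Genes in the fit without Adam23 and without the nuclei led by hepatocyte genes, Wnt2, Smad6, Hal and Sds were named after their values were seen. Gene positions are of GENCODE M21 on GRCm38.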

Additional observations from a re-analysis of the deposited data

How the results depend on the processing

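No gene passed in the genotype comparison in any fit with a mouse left out. DESeq2 called 1 gene, and without a filter on low counts edgeR called 16. The count of 1 gene between both sides of the sinusoid was 2 in DESeq2, 19 without a filter, 3 without the nuclei with the highest hepatocyte share, 6 without the nuclei led by hepatocyte genes, 0 with no mouse block, 2 without Cdh13 and 50 without Adam23 among the anchors, 9 without both, 23 without Adam23 and the nuclei led by hepatocyte genes, and 0 to 6 with a mouse left out. The stellate comparison, with 0 genes, had 3 without a filter and 0 to 18 with a mouse left out. The causes were not tested.

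The log2 fold change of Stab2 was 0.060 without a filter, and with a mouse left out Stab2 ranged from -0.22 to 0.061, Adgrl4 from -0.023 to 0.091 and Sema6a from -0.24 to 0.16. The sinusoidal share difference (HNKO minus WT, percentage points) was 0.0613 as a mean over nuclei, 0.0395 with SCTransform values and -0.203 to 0.0435 with a mouse left out, and the large vessel difference -0.0127 to 0.00400. The hepatocyte share difference was -0.0897 as a mean over nuclei, -0.0527 without Cps1 and -0.0957 with SCTransform values. The held-out periportal list stood at -0.99 to -0.51 with a mouse left out (5 mice cannot go below 0.0625), at -1.11 without Cdh13 (4 mice), -0.80 without Adam23, -0.64 without the nuclei led by hepatocyte genes (5 mice) and -0.76 without both.

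No paired analysis was possible because mouse numbers are hashtag names that pair no WT mouse with an HNKO mouse. The alternatives without Adam23 or without the nuclei led by hepatocyte genes were chosen after seeing the data. The 81 WT nuclei and 89294 to 108323 UMIs per WT mouse limit genes of low level.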
